A study of Homo sapiens with 4 samples.

Results

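The BCL2 family and the inhibitor of apoptosis proteins (IAPs) decide whether a stressed cell dies by apoptosis, and 10 of their genes were followed here. They were chosen by name, and each symbol matched 1 of the 48162 rows of the expression table. The members were the guardians MCL1, BCL2L1, BCL2 and BCL2L2, the effector BAK1, the BH3-only genes BID, BCL2L11 and BIK, and the IAP genes BIRC2 and XIAP. Poly(A) RNA was sequenced from MDA-MB-231, an established human line from a triple-negative breast cancer, grown as a single line in serum-containing DMEM. Cells of 2 libraries were given MGH-CP1, a small molecule that the series title calls an inhibitor of TEAD palmitoylation, at 10 µM for 24 h. Cells of the other 2 libraries were given vehicle for 24 h. The labels do not say whether replicates were separate cultures, so p-values reflect library-to-library spread only, possibly technical.

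Guardian proteins hold the pro-apoptotic members in check at the outer mitochondrial membrane. BH3-only proteins, which act as sensors, bind the groove of the guardians through a short helix, the BH3 domain, or switch on the effectors BAK1 and BAX, which then open the membrane and release cytochrome c. Released cytochrome c assembles the apoptosome and starts the caspase cascade, and IAPs restrain that cascade downstream: XIAP binds and blocks caspases directly, and BIRC2 (cIAP1) is a ubiquitin ligase that also shapes signalling from TNF receptors. Many breast cancer cells lean on MCL1 and BCL2L1 (BCL-XL) for survival, which is why these proteins are drug targets.

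The 8 BCL2 family members all carry a BH3 core, whether they protect cells or kill them. A script translated the GENCODE 29 principal coding sequence of each gene (GRCh38) and found the pattern of leucine or methionine, any 3 residues, glycine and aspartate exactly 1 time in each of the 8. The coding bases of that core are shown because BH3-only proteins bind the groove of the guardians through their BH3 domain. The 18 bases of the core are in capitals, with 9 bases on each side in lower case, written 5′ to 3′ on the coding strand.
MCL1: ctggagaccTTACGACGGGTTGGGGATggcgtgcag
BCL2L1: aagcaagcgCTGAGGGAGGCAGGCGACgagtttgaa
BCL2: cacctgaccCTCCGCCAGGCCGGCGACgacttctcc
BCL2L2: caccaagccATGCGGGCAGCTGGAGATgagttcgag
BAK1: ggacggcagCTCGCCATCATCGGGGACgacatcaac
BID: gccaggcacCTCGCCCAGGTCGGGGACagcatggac
BCL2L11: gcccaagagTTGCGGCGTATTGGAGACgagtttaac
BIK: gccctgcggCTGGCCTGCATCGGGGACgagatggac

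Of these 8 cores, only that of BCL2L2 opens with the methionine codon. The G and C content of the core ran between 55.6% in MCL1 and BCL2L11 and 83.3% in BCL2. In BCL2 the printed stretch lies on the minus strand at chr18:63318352-63318387, and in BIK on the plus strand at chr22:43127707-43127742, both within coding exons. BIRC2 and XIAP have no BH3 domain. Each of their coding sequences held the zinc-binding pattern of the BIR domain, the module that gives IAPs their name, 3 times.

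Each library had between 16790645 and 18485701 reads in genes. Mitochondrial genes held 1.81% and 1.54% of these reads with MGH-CP1 and 0.676% and 0.645% with vehicle, so the groups did not overlap. With totals that leave those reads out, every member kept its direction and BAK1 was called as well (limma, adjusted p = 0.0419); any other part of this difference in the results was not tested. The labelled line was checked against its markers. VIM and CD44, mesenchymal markers, were at 147 FPKM or more in every library, CDH1 was under 1 FPKM in every library, PGR was at 0 in all 4, and ESR1 had at most 0.00912 FPKM. Some markers of the line differed between groups. VIM and CD44 were called higher with MGH-CP1 (log2 fold changes 0.30 and 0.29; limma, adjusted p = 0.0186 and 0.00634). AXL, a receptor tyrosine kinase of mesenchymal-like breast cancer cells, had 279 and 297 FPKM with MGH-CP1 and 546 and 559 FPKM with vehicle (log2 fold change -0.94; limma, adjusted p = 6.43e-05). The keratin gene KRT18 had 60.9 and 59.4 FPKM with MGH-CP1 and 78.7 and 70.3 FPKM with vehicle (log2 fold change -0.30; limma, adjusted p = 0.0101). Of 11 alternative analyses, 3 lost the call of VIM, 2 that of KRT18, 1 that of CD44 and 0 that of AXL. The 6 fibroblast markers summed to at most 6.30 FPKM in an MGH-CP1 library and 7.56 FPKM in a vehicle library. The 5 immune markers summed to 3.96 and 3.63 FPKM with MGH-CP1 and 3.62 and 3.58 FPKM with vehicle, mostly from CD14. The 3 endothelial markers in the table summed to 0.457 and 0.615 FPKM with MGH-CP1 and 0.516 and 0.888 FPKM with vehicle. The TEAD target CYR61 marked the treatment, at 62.6 and 56.4 FPKM with MGH-CP1 against 236 and 228 FPKM with vehicle.

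With MGH-CP1 the abundant guardians BCL2L1 and MCL1 had means 0.936 and 0.955 times those of vehicle, differences that did not pass. BCL2 and the BH3-only gene BIK fell, and the IAP genes moved in opposite directions. Levels are FPKM, a read density per kilobase of gene scaled to library size, which allows genes to be compared per length. Changes are log2 fold changes of MGH-CP1 over vehicle on the log2(FPKM + 1) scale from limma, with Benjamini-Hochberg adjustment over the 11790 genes averaging 1 FPKM or more. Genes are said to be called where this adjusted p lay under 0.05. Of the 10 members 3 were called lower (BCL2, BIK and BIRC2) and 1 higher (XIAP), and the other 6 were not called. BCL2, counted here, reached the minimum of 1 FPKM only through its vehicle libraries, so it had to differ. Over all genes tested 25.1% were called lower and 20.0% higher, 45.0% in all, and the members' shares were 30% and 10%. The values of the groups did not overlap for any of the 10 members, which also held for 74.1% of all genes tested. A fall can mean less RNA in each cell or fewer cells with the RNA, and bulk libraries cannot tell these apart. The median log2 fold change was 0.01 over the members and -0.02 over all genes tested.

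**Figure D1:**
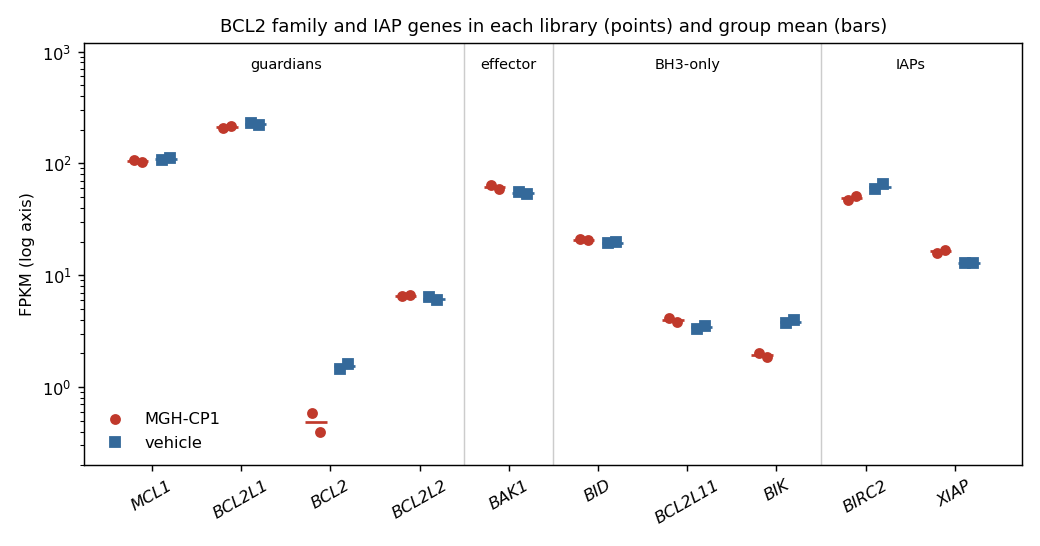
FPKM of each member on a log axis, with red circles for the 2 MGH-CP1 libraries, blue squares for the 2 vehicle libraries and bars for group means. BCL2L1 and MCL1 stand above 100 FPKM in every library, BCL2 stands lowest, and the gap between groups is widest for BCL2 and BIK.

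Among the guardians, the messages in quantity were BCL2L1 and MCL1. BCL2L1 (ENSG00000171552, hg19 chromosome 20, 30252255 to 30311792, minus strand) had 205 and 216 FPKM with MGH-CP1 and 230 and 221 FPKM with vehicle. It was more abundant than 98.4% of the genes tested. Its log2 fold change of -0.09 ± 0.06 (SE) did not pass (limma, adjusted p = 0.238), and the 95% interval of -0.24 to 0.05 leaves room for a small fall. The table counts all BCL2L1 messages together, so the long protective and the short pro-apoptotic splice form cannot be told apart.

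MCL1 (ENSG00000143384, chromosome 1, 150547032 to 150552066, minus strand) encodes a guardian with a short-lived protein. It had 107 and 103 FPKM with MGH-CP1 and 108 and 112 FPKM with vehicle. Both MGH-CP1 values lay below both vehicle values, by a margin that did not pass (log2 fold change -0.07, 95% interval -0.20 to 0.07; limma, adjusted p = 0.379). Among tested genes 15.7% had a smaller absolute change.

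BCL2 (ENSG00000171791, chromosome 18, 60790579 to 60987361, minus strand), the founding member of the family, was the scarcest of the 10. It had 0.581 and 0.395 FPKM with MGH-CP1, resting on 75 and 50 reads, and 1.44 and 1.62 FPKM with vehicle, resting on 199 and 203 reads. The MGH-CP1 mean of 0.488 ± 0.132 FPKM was 0.319 times the vehicle mean of 1.53 ± 0.126 FPKM (SD, n = 2 each). The log2 fold change was -0.77 ± 0.14 (limma, adjusted p = 0.00412), and -1.66 with voom on the reads (adjusted p = 2.32e-05), since the added 1 FPKM compresses a gene at this level. In both of these fits BCL2 reached the minimum of 1 FPKM only through its vehicle libraries, so a gene kept in this way had to differ. With no minimum it was still called (limma, adjusted p = 0.0297). Without either vehicle library its mean fell under the minimum and gave no value.

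BCL2L2 (ENSG00000129473, chromosome 14, 23767999 to 23780968, plus strand), which encodes BCL-W, had 6.51 and 6.62 FPKM with MGH-CP1 and 6.33 and 5.95 FPKM with vehicle. The difference did not pass (log2 fold change 0.08, 95% interval -0.11 to 0.27; limma, adjusted p = 0.428). Its locus overlaps PPP1R3E on the opposite strand, at a mean of 1.96 FPKM, and the readthrough gene BCL2L2-PABPN1 on the same strand, which is listed at 0 in all libraries, so its level is uncertain.

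BCL2L1 made up 64.4% and 66.3% of the summed FPKM of the 4 guardians with MGH-CP1 and 66.5% and 64.9% with vehicle. MCL1 made up 33.4% and 31.5% with MGH-CP1 and 31.2% and 32.8% with vehicle. These shares overlapped between groups. BCL2 contributed 0.182% and 0.121% with MGH-CP1 and 0.418% and 0.476% with vehicle, so its fall hardly moved the guardian total.

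**Figure D2:**
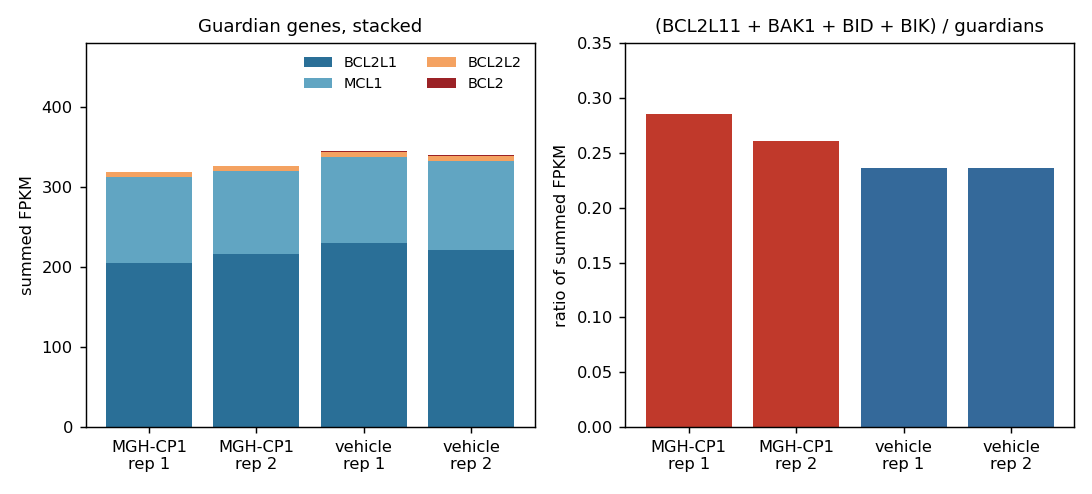
Left, FPKM of the 4 guardian genes stacked for each library; right, the ratio of the summed FPKM of BCL2L11, BAK1, BID and BIK to that of the guardians. BCL2L1 and MCL1 fill almost all of each stack, and the ratio is 0.285 and 0.260 in the MGH-CP1 libraries against 0.236 in both vehicle libraries; with 6 relatives added to the numerator, which is not plotted, the groups overlapped.

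Among the pro-apoptotic members, the effector BAK1 was the most abundant. BAK1 (ENSG00000030110, chromosome 6, 33540329 to 33548019, minus strand), which forms pores in the outer mitochondrial membrane, had 63.9 and 58.9 FPKM with MGH-CP1 and 55.1 and 53.0 FPKM with vehicle. Its log2 fold change of 0.18 ± 0.06 lay just outside the threshold (limma, adjusted p = 0.052; 95% interval 0.03 to 0.33). It was called higher in 6 of 11 alternative analyses, voom among them, and its adjusted p ran between 0.0275 and 0.359 over all 11. The BAK1 pseudogenes in the table, BAK1P1 and BAK1P2, summed to a mean of 1.16 FPKM and may share reads with it.

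The 3 BH3-only members did not move together. BIK (ENSG00000100290, chromosome 22, 43506754 to 43525718, plus strand), a sensor that sits mainly at the endoplasmic reticulum, had 2.00 and 1.86 FPKM with MGH-CP1 and 3.75 and 3.94 FPKM with vehicle. The MGH-CP1 mean was 0.502 times the vehicle mean. The values rested on 33 and 30 reads with MGH-CP1 and 66 and 63 reads with vehicle, so counting error is large: the 95% Poisson interval was 1.38 to 2.81 FPKM for MGH-CP1 replicate 1 and 2.90 to 4.77 FPKM for vehicle replicate 1. These intervals cover counting error only. The log2 fold change was -0.73 ± 0.10 (limma, adjusted p = 0.00131), and it was called lower in each of the 10 alternatives that tested it, with a highest adjusted p of 0.0209.

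BID (ENSG00000015475, chromosome 22, 18216906 to 18257536, minus strand) links death receptors to mitochondria after it is cut by caspase-8. It had 21.0 and 20.5 FPKM with MGH-CP1 and 19.2 and 19.8 FPKM with vehicle, a difference that did not pass (log2 fold change 0.08, 95% interval -0.06 to 0.23; limma, adjusted p = 0.289). BCL2L11 (ENSG00000153094, chromosome 2, 111876955 to 111926024, plus strand) encodes BIM, a sensor that binds every guardian. It had 4.13 and 3.79 FPKM with MGH-CP1 and 3.33 and 3.50 FPKM with vehicle (log2 fold change 0.17, 95% interval -0.06 to 0.39; limma, adjusted p = 0.196). For both genes the MGH-CP1 values lay above the vehicle values without passing, and intervals of this width do not show that the levels were alike.

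The summed FPKM of the 4 pro-apoptotic members was 91.1 and 85.0 with MGH-CP1 and 81.4 and 80.3 with vehicle, and that of the 4 guardians was 319 and 326 with MGH-CP1 and 345 and 340 with vehicle. The ratio of the sums was 0.285 and 0.260 with MGH-CP1 and 0.236 in both vehicle libraries. BAK1 dominates the numerator, and a sum over members carries no test. Whether the libraries of the groups overlapped depended on which genes were summed. With the 6 tested relatives BAX, BOK, BAD, PMAIP1, BBC3 and BMF added to the numerator, an alternative chosen after seeing the data, the ratio was 0.619 and 0.582 with MGH-CP1 and 0.584 and 0.586 with vehicle, and the groups overlapped. The ratio is one of messages, and protein levels were not measured.

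The IAP members moved in opposite directions. BIRC2 (ENSG00000110330, chromosome 11, 102217942 to 102249401, plus strand) fell, with 47.0 and 50.6 FPKM with MGH-CP1 and 58.7 and 65.1 FPKM with vehicle. The MGH-CP1 mean of 48.8 ± 2.56 FPKM was 0.789 times the vehicle mean of 61.9 ± 4.51 FPKM (SD, n = 2 each), or -0.34 ± 0.07 as log2 fold change (limma, adjusted p = 0.00763). The call was lost without MGH-CP1 replicate 1 (log2 fold change -0.28; limma, adjusted p = 0.0687) and with no minimum level (adjusted p = 0.0573).

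XIAP (ENSG00000101966, chromosome X, 122993574 to 123047829, plus strand) rose, with 15.9 and 16.8 FPKM with MGH-CP1 and 13.0 FPKM in both vehicle libraries. The MGH-CP1 mean was 1.26 times the vehicle mean, or 0.31 ± 0.07 as log2 fold change (limma, adjusted p = 0.00721). The call was lost without MGH-CP1 replicate 2 (log2 fold change 0.28; limma, adjusted p = 0.074). The antisense gene XIAP-AS1 had at most 1 read in a library.

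**Figure D3:**
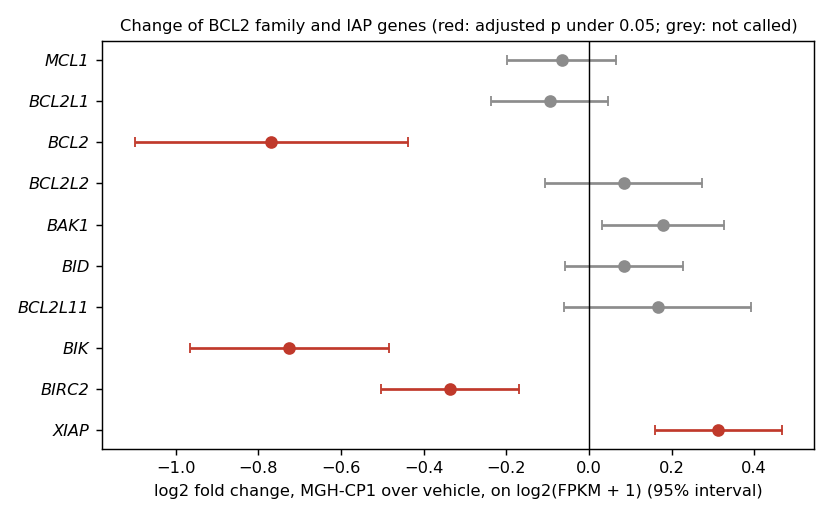
Log2 fold change of each member, MGH-CP1 over vehicle, on the log2(FPKM + 1) scale with its 95% interval from limma; red marks an adjusted p under 0.05. BCL2, BIK and BIRC2 lie below 0 and XIAP above it, and the interval of BAK1 excludes 0 without an adjusted p under 0.05.

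RefSeq promoter windows (GRCh38.p14, 250 bases before to 50 after the start) were listed for 7 of the 10 members, in 15 windows, and not for MCL1, BCL2L2 and BIK. They were searched on both strands for GGAATG, the core bound by TEAD proteins, for the E2F sites TTTGGCGC and TTTCCCGC, and for the FOXO site GTAAACA. No motif contains another. They occur in 14.03%, 0.65%, 1.63% and 3.42% of all 35116 windows. The only match among the members was a FOXO site in BCL2L11, a gene known as a FOXO target, 223 bases upstream of the start. It is shown with its neighbours, the match in capitals, on the plus strand at chr2:111120680-111120708.
BCL2L11 promoter: gagttactccgGTAAACAcgccagggacg

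A match in letters is not a site in use, and the absence of one says only that these letters are not in this window.

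The rest of the pathway was followed through 7 lists of 48 genes, of which 40 were tested. MGH-CP1 raised 9 of these 40 and lowered 11, which is 22.5% and 27.5%, beside 20.0% and 25.1% of all genes tested. The median log2 fold change of the 40 was 0.01.

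Relatives of the members among BH3-only and effector genes gave the largest changes of the 40, with 2 of 6 tested genes higher and 3 lower. BMF, a BH3-only sensor tied to the cytoskeleton, had 3.76 and 3.55 FPKM with MGH-CP1 and 0.646 and 0.623 FPKM with vehicle. Its log2 fold change was 1.51 ± 0.11 (limma, adjusted p = 9.17e-05), and 2.51 with voom. BMF reached the minimum level only through its MGH-CP1 libraries, so it had to differ, but the call also held with no minimum, the highest adjusted p over 10 alternatives being 0.00668.

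BBC3, which encodes PUMA, a sensor that binds all guardians, rose to 11.8 and 10.5 FPKM with MGH-CP1, against 4.09 and 4.89 FPKM with vehicle (log2 fold change 1.14 ± 0.10; limma, adjusted p = 0.000178). PMAIP1, which encodes the MCL1-binding sensor NOXA, fell to 26.2 and 24.0 FPKM with MGH-CP1, against 31.8 and 36.1 FPKM with vehicle (log2 fold change -0.42 ± 0.08; limma, adjusted p = 0.00491). The called sensors therefore went both ways: BMF and BBC3 up, BIK and PMAIP1 down. The sensors BID, BCL2L11 and BAD were tested and not called.

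The remaining called genes of that list, named after their values were seen, were the effectors BAX and BOK. BAX, the partner of BAK1 in pore formation, had 36.1 and 36.4 FPKM with MGH-CP1 and 47.1 and 46.0 FPKM with vehicle (log2 fold change -0.35 ± 0.05; limma, adjusted p = 0.00196). BOK had 20.2 and 20.7 FPKM with MGH-CP1 and 24.4 and 25.2 FPKM with vehicle. Its call was lost without MGH-CP1 replicate 1 (limma, adjusted p = 0.0873) and without MGH-CP1 replicate 2 (limma, adjusted p = 0.0592). BAD had 8.50 and 9.78 FPKM with MGH-CP1 and 12.02 and 6.43 FPKM with vehicle, and it overlaps GPR137 on the opposite strand at a mean of 40.9 FPKM, so its value is uncertain.

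Among divergent BCL2 relatives 2 of 4 tested genes were higher and 1 lower. BCL2L12 fell to 17.9 FPKM in both MGH-CP1 libraries, against 27.6 and 24.8 FPKM with vehicle (log2 fold change -0.53 ± 0.07; limma, adjusted p = 0.00101). It overlaps IRF3 on the opposite strand at 19.8 FPKM, so its value is uncertain. BNIP3 and BNIP3L, mitophagy receptors induced by hypoxia, had log2 fold changes of 0.17 and 0.18. Both calls were lost without either MGH-CP1 library or with no minimum level. BNIP3L overlaps PNMA2 on the opposite strand at a mean of 9.70 FPKM, so its value is uncertain.

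Among the other IAP genes 1 of 3 tested was lower. BIRC5, which encodes survivin, a mitotic protein of the chromosomal passenger complex as well as an IAP, fell to 5.46 and 5.63 FPKM with MGH-CP1, against 14.3 and 10.0 FPKM with vehicle (log2 fold change -0.99 ± 0.15; limma, adjusted p = 0.00159). BIRC3, the close relative and chromosomal neighbour of BIRC2, had 58.6 and 59.2 FPKM with MGH-CP1 and 57.7 and 64.0 FPKM with vehicle. Its values overlapped, and its log2 difference of -0.04 had a 95% interval of -0.20 to 0.11. Of the IAP antagonists HTRA2 and XAF1, the only ones tested, neither was called (limma, 0 at an unadjusted p under 0.05, and 0 with voom). HTRA2 overlaps AUP1 on the opposite strand at a mean of 31.5 FPKM, so its value is uncertain.

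**Figure D4:**
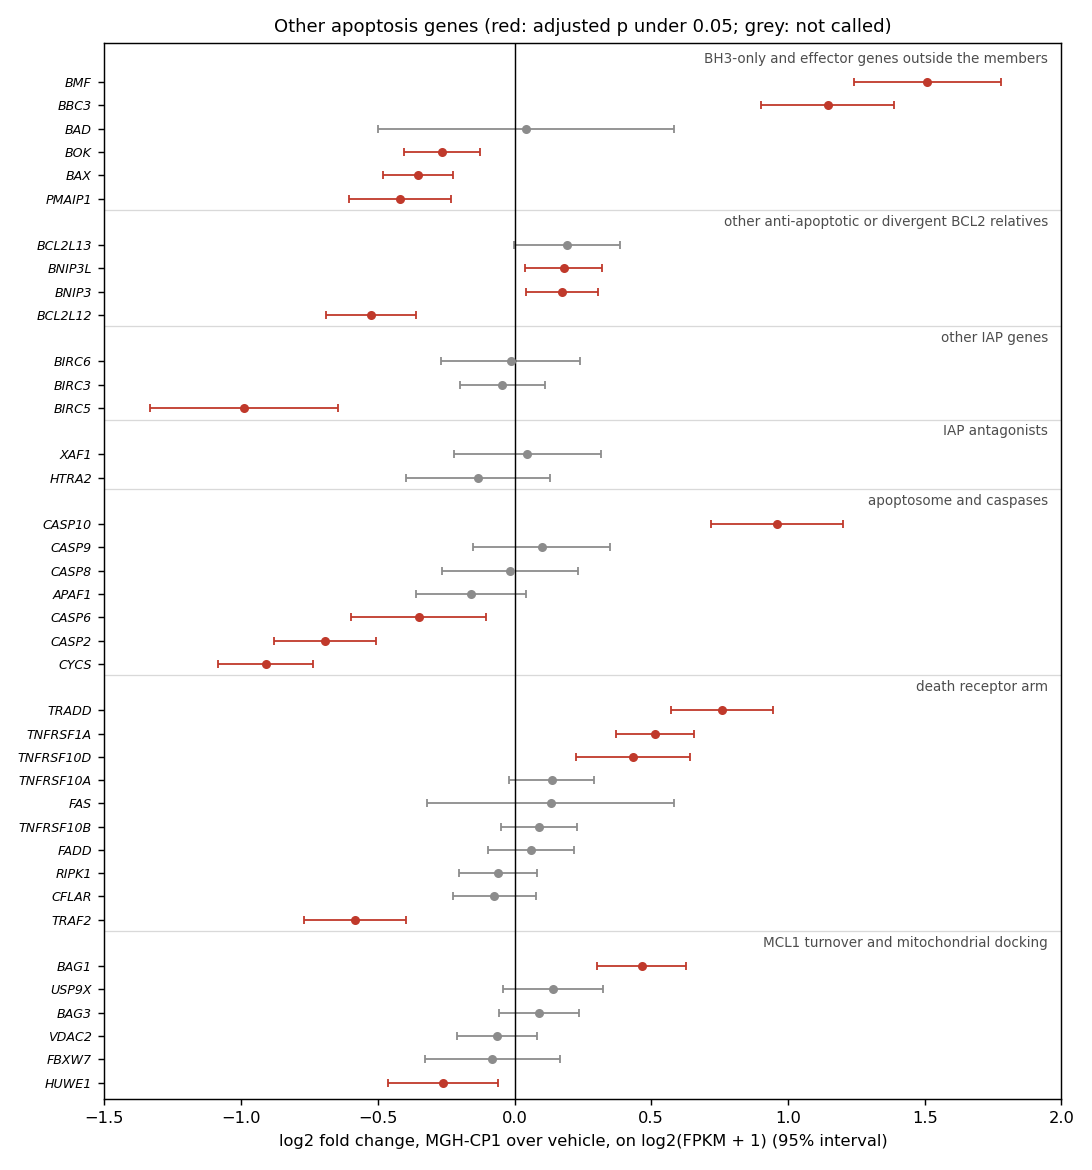
Log2 fold change, MGH-CP1 over vehicle, on the log2(FPKM + 1) scale with its 95% interval for tested genes of the other apoptosis lists, grouped by list; red marks an adjusted p under 0.05. BMF and BBC3 lie farthest to the right, and BIRC5 and CYCS farthest to the left.

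In the list of apoptosome and caspase genes, 4 of 9 tested were lower and 1 higher. CYCS, the gene of cytochrome c itself, fell to 20.5 and 19.4 FPKM with MGH-CP1, against 40.8 and 36.2 FPKM with vehicle (log2 fold change -0.91 ± 0.07; limma, adjusted p = 0.000121). The table lists 19 CYCS pseudogenes, together at a mean of 1.39 FPKM, which may share its reads. CASP2 fell to 4.99 and 5.19 FPKM with MGH-CP1, against 8.62 and 9.07 FPKM with vehicle (log2 fold change -0.69 ± 0.08).

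CASP10, an initiator caspase of death receptors, rose to 4.29 and 4.77 FPKM with MGH-CP1, against 1.83 and 1.85 FPKM with vehicle (log2 fold change 0.96 ± 0.10; limma, adjusted p = 0.000384). CASP9, the caspase of the apoptosome, named after its values were seen, had 2.99 and 2.79 FPKM with MGH-CP1 and 2.79 and 2.48 FPKM with vehicle (limma, adjusted p = 0.484).

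In the death receptor arm, where BIRC2 acts with TRAF2, 3 of 10 genes were higher and 1 lower. TRADD, the adaptor of TNF receptor 1, rose to 14.2 and 15.5 FPKM with MGH-CP1, against 8.76 and 7.996 FPKM with vehicle (log2 fold change 0.76 ± 0.08; limma, adjusted p = 0.000351). TRADD overlaps FBXL8 on the opposite strand at a mean of 1.59 FPKM, so its value is uncertain. The receptor gene TNFRSF1A rose to 106 and 102 FPKM with MGH-CP1, against 75.0 and 70.0 FPKM with vehicle (log2 fold change 0.51 ± 0.06). TRAF2, which recruits BIRC2 to the receptor, fell to 19.8 and 17.1 FPKM with MGH-CP1, against 27.7 and 28.5 FPKM with vehicle (log2 fold change -0.58 ± 0.08; limma, adjusted p = 0.00107).

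Of 6 genes that act on MCL1 turnover or on docking of BAK1 and the guardians, 1 was higher and 1 lower. BAG1, a co-chaperone first found as a BCL2 partner, rose to 19.3 and 18.7 FPKM with MGH-CP1, against 12.9 and 14.1 FPKM with vehicle (log2 fold change 0.47 ± 0.07; limma, adjusted p = 0.00167). It overlaps SPINK4 on the opposite strand at a mean of 8.41 FPKM, so its value is uncertain. HUWE1, a ubiquitin ligase that targets MCL1 protein, had 69.4 and 75.6 FPKM with MGH-CP1 and 80.5 and 94.1 FPKM with vehicle, and its call was lost in 5 of 11 alternatives (adjusted p up to 0.224 in limma, reached when MGH-CP1 replicate 1 was left out).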

How the data were processed

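The authors deposited 1 table of FPKM values for 48162 genes in 4 libraries. Per the submitters' processing notes, CASAVA 1.8 made the base calls and STAR was the aligner, with hg19 as the genome. Which counter, strand setting and annotation were used is not given in the sources used here. FPKM times gene length, divided by a unit fitted for each library, gave whole reads (100% of values within 0.01 of a whole number). Those reads set the depth.

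The fit used limma 3.58.1 (R 4.3.3) on log2(FPKM + 1), MGH-CP1 over vehicle, with group as the only term and a mean-variance trend, for the 11790 genes averaging 1 FPKM or more. A check of the fit on simulated data asked only that planted changes be recovered, and it set no limit on false calls. Alternatives were a pseudocount of 0.1, no minimum, a minimum of 5 FPKM, 2 rescalings, voom on the reads, a replicate block and leaving out each library. Tables and plots used Python 3.11.15, pandas 2.3.3 and matplotlib 3.10.9. An exact permutation test of 2 against 2 libraries cannot go below p = 0.333 and was not used.

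Members and lists were chosen with earlier results of these data known. All members were named, with up to 3 called genes of the largest change per apoptosis list. A few genes of the lists are not reported here by name, though the counts include them.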

Additional observations from a re-analysis of the deposited data

How the results depend on the processing

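The members kept their direction in all 105 combinations of member and alternative that gave a value, and their side of the threshold in 96 of them; the exceptions were BAK1 in 6, BIRC2 in 2 and XIAP in 1. Of 10 members, 1 was called higher and 3 lower. The number higher was 2 with a minimum of 5 FPKM, with median-ratio rescaling, without mitochondrial reads in the totals, with voom and with the replicate block, and 0 to 2 when a library was left out. The number lower was 1 with a minimum of 5 FPKM, under which BCL2, BIK and BCL2L11 were not tested, 2 with no minimum, and 2 to 3 when a library was left out. Over all genes 2355 were called higher, 1568 with no minimum and 1450 to 2554 when a library was left out; 2956 were called lower, 2033 with no minimum and 2039 to 3066 when a library was left out. The ratio of pro-apoptotic to guardian FPKM was 0.0369 higher with MGH-CP1. With 6 relatives in the numerator, chosen after seeing the data, the mean was 0.0154 higher, but the groups overlapped. MGH-CP1 replicate 2 (0.582) then lay below both vehicle libraries (0.584 and 0.586). The replicate numbers do not pair the libraries by any label, and the correlation across genes of their differences was 0.05. In the apoptosis lists 409 of 434 combinations kept their side of the threshold. The direction turned past the threshold for BAD alone, whose log2 fold change of 0.04 was -0.36 to 0.44 when a library was left out; it was called higher without vehicle replicate 1 (limma, adjusted p = 0.00687) and lower without vehicle replicate 2 (limma, adjusted p = 0.0137). With 2 libraries a group, intervals are wide, and the 30 to 75 reads behind BIK and BCL2 with MGH-CP1 limit both.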
